A study of Solanum lycopersicum with 24 samples.

Results

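The genes described here are the 200 tomato (Solanum lycopersicum) genes whose transcripts stood highest, relative to the other stages, in the wild-type sympodial inflorescence sample. They were chosen from the 12 wild-type (WT) libraries. Among genes with a highest WT stage mean of at least 2 RPKM (reads per kilobase of gene and per M mapped reads, M for mega), the log2 ratio of the SFIM mean to the largest of the VM, TM and FIM means was ranked, with 0.5 added to each mean, and the first 200 genes were kept. Of 34075 genes listed, 15915 met the minimum. The WT values chose the members, so WT levels are given below as a description, and the slful libraries, which the rule did not use, carry the tests. The last 5 genes inside the limit and the first 5 outside it had almost the same ratio, with 0.486 for macrocalyx (Solyc05g056620) at rank 200 and 0.484 for Solyc08g067410 at rank 201.

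The series compared the slful mutant with WT. The slful genotype is written ful1/ful2/mbp10/mbp20, for 4 MADS-box genes of the FRUITFULL-like group, and no source here says what the mutations are. Each genotype was sampled as vegetative meristem (VM), transition meristem (TM), floral plus inflorescence meristem (FIM), and the FIM that forms on the first sympodial shoot (SFIM). Each of the 8 groups, slful VM, slful TM, slful FIM, slful SFIM, WT VM, WT TM, WT FIM and WT SFIM, had 3 libraries, and each sample pooled 30 to 60 meristems from greenhouse plants. In such bulk samples, fewer cells of a type and less RNA per cell cannot be told apart.

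Tomato shoots are sympodial: the primary shoot ends in an inflorescence, and growth goes on from an axillary meristem that makes a few leaves before it ends in an inflorescence in turn. The inflorescence itself branches as new meristems form beside each one that becomes a flower. FRUITFULL-like genes encode MADS-domain transcription factors of the group that includes APETALA1, and they are known for promoting flowering and for shaping inflorescences.

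The totals implied by the RPKM values were 12.93 to 90.37 M reads per library, so that for a gene of 1 kb a single read was worth 0.0111 to 0.0774 RPKM. Values of the VM and SFIM libraries were deposited with a median of 11 significant digits and those of the TM and FIM libraries with 16. The SFIM to VM comparison stays within a number format, whereas SFIM against TM or FIM crosses it, and the stage and the format cannot be told apart there. The 7 loci listed by ID as SEPALLATA and APETALA1-like summed to 305 to 333 RPKM in slful SFIM and 4.09 to 5.65 RPKM in slful VM. In WT they summed to 314 to 317 RPKM at SFIM and 1.76 to 4.35 RPKM at VM. FIM was high too, with 360.5 to 376.7 RPKM in slful and 259 to 306 RPKM in WT, and TM had 134 to 168 and 61.6 to 132.5 RPKM. All 9 loci listed as meristem and axillary genes passed the filter and summed to 439 to 482 RPKM in slful SFIM and 440 to 456 RPKM in WT SFIM. At FIM they summed to 430.5 to 486 RPKM in slful and 422.7 to 476.5 RPKM in WT. At VM the sums were 332 to 349 and 318 to 360 RPKM, and at TM 389 to 429 and 306 to 393 RPKM. The 6 loci listed as inflorescence and flowering genes, none of them a member, were lowest in sum at SFIM. They had 176 to 197 RPKM in slful SFIM, 251.5 to 293 in FIM, 402 to 430 in TM and 308 to 355 in VM. In WT the sums were 155 to 173, 294 to 317, 377 to 437 and 256 to 326 RPKM, in the same order. Genes described as photosynthetic were 7 in all, and none of them was a member. Only the 435 genes on the authors' lists of slful versus WT differences are described, so these 7 were chosen for a genotype difference. They summed to 17.4 to 31.4 RPKM in slful SFIM and 7.57 to 11.3 RPKM in WT SFIM, and nothing is read from gaps between the genotypes. Their sums were higher at TM (56.1 to 61.7 RPKM in slful, 57.9 to 172.8 RPKM in WT). At FIM they were 27.6 to 39.1 RPKM in slful and 37.0 to 83.5 RPKM in WT, and at VM 25.2 to 38.1 and 19.0 to 36.6 RPKM. The part of these genes in the results below was not tested. Over all tested genes, the slful FIM libraries were the most variable, with a median SD between replicates of 0.233 on the log2 scale. In slful SFIM it was 0.0921. Among the members these medians were 0.267 in slful FIM, 0.271 in slful TM and 0.236 in slful SFIM. The variance weights of the fit, 0.261 for slful FIM and 1.56 for slful SFIM, were set over all tested genes. They do not follow the members' own spread.

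**Figure D1:**
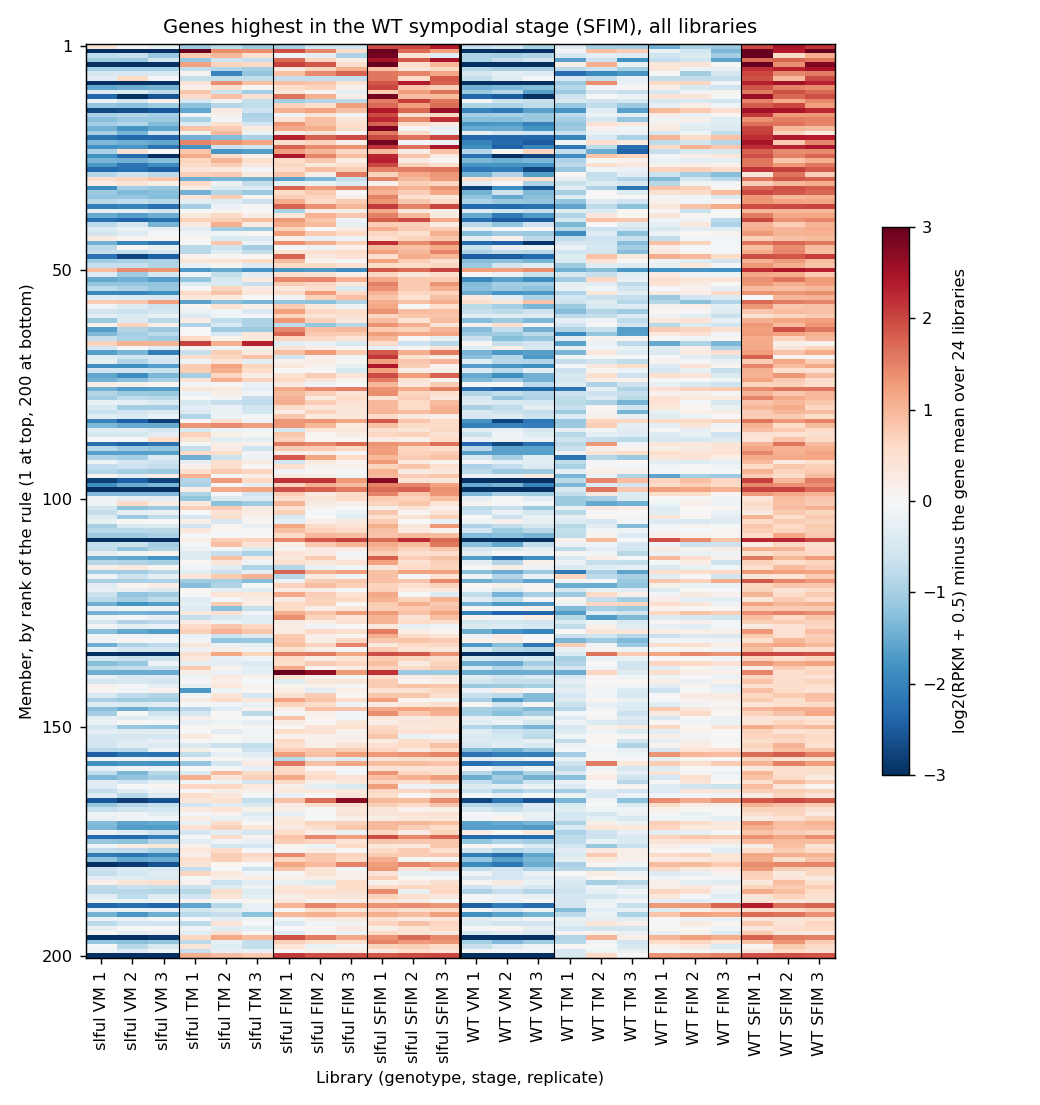
Each row is 1 of the 200 members in the order of the rule and each column is a library; the colour is log2(RPKM + 0.5) minus the gene's mean over the 24 libraries, with the scale closed at 3 either way. The rule chose the rows for red in the 3 WT SFIM columns; the 3 slful SFIM columns, which the rule did not use, are red for most rows.

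In WT, the members' median level followed the order VM 2.28, TM 3.84, FIM 5.28 and SFIM 10.9 RPKM. The second highest WT stage was VM for 33 members, TM for 35 and FIM for 132. Highest in level was Solyc07g007750, an undescribed gene named here after its values were seen, with 930 ± 55 RPKM in slful SFIM and 845 ± 163 RPKM in WT SFIM (SD, n = 3 each). At the low end, Solyc08g082910 averaged 2.73 RPKM in slful SFIM and 2.03 RPKM in WT SFIM. The members were shorter than the genes they were drawn from, with a median of 1078 bases against 1511 among the 15915 genes that met the minimum. Only 44 members carried a deposited description, since the authors described only the 435 genes on their own lists of slful versus WT differences. The other 156 are given by ID. Of the described members, 30 were listed as higher in slful at FIM, which favours a small difference between slful SFIM and slful FIM among them.

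The first question was whether the sympodial maximum returned in slful, in libraries that had no part in choosing the genes. Of the 200 members, 187 were higher in slful SFIM than in slful VM and 1, cytokinin oxidase6, was lower, at a limma adjusted p (Benjamini-Hochberg over all 18786 tested genes) under 0.05. Among all tested genes, 19.7% were higher and 28.2% lower. The median log2 difference of the members was 1.53, beside -0.05 for all tested genes, and it was above 0 for 198 members. All 3 slful SFIM libraries lay above all 3 slful VM libraries for 186 members, against 23.5% of tested genes.

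Against slful TM, 130 members were higher in slful SFIM and 2 were lower by the same test, where 13.6% of tested genes were higher and 17.7% lower. The median difference of the members was 0.83, beside -0.04 for all tested genes. The 3 slful SFIM libraries lay above every slful TM library for 132 members, against 19.2% of tested genes. The 2 lower members were cytokinin oxidase6 and the undescribed Solyc06g048600, which had 23.7, 15.6 and 17.6 RPKM in slful SFIM against 28.0, 33.0 and 29.1 RPKM in slful TM. Without slful TM replicate 2 the limma adjusted p of Solyc06g048600 was 0.0526. Without slful SFIM replicate 1, 122 members were higher and 9 lower than slful TM (12.9% and 16.2% of tested genes), alcohol dehydrogenase (Solyc06g059740) among the lower ones with -1.45 (limma adjusted p = 0.00299).

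Against slful FIM, the corresponding structure of the primary shoot, 11 members were higher and 0 were lower by the limma adjusted p, where 1.17% of tested genes were higher and 2.18% lower. At an unadjusted p under 0.05, 1 member was lower, and voom on the recovered reads called 0 lower. By the adjusted p, 1 was lower without variance weights, without slful FIM replicate 1 and without slful SFIM replicate 1, and 3 with both of these libraries left out. The median difference was 0.28, beside 0.04 for all tested genes, with 157 members above 0 and quartiles of 0.05 and 0.59. In WT, where the rule fixed the sign, the same difference had a median of 0.84. Without slful FIM replicate 1 the count of higher members was 37 and the share of all tested genes was 3.87%, and without slful FIM replicate 2 the count was 6. The 3 slful SFIM libraries lay above all 3 slful FIM libraries for 68 members, against 10.7% of tested genes, and above every library of the other 3 slful stages for 55 members, against 2.48%.

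**Figure D2:**
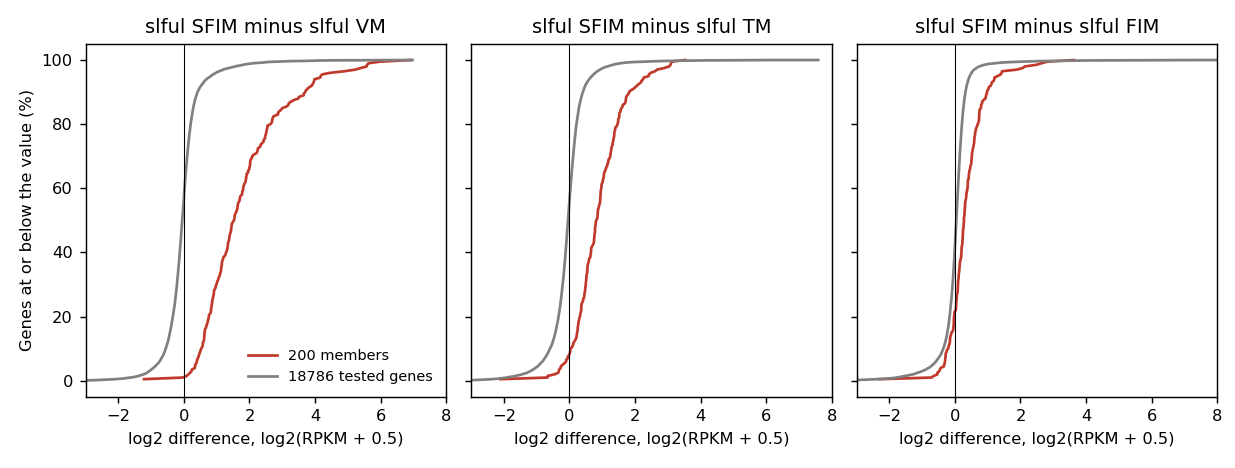
Cumulative share of genes (y axis, percent) at or below a log2 difference (x axis, on log2(RPKM + 0.5), with the few genes beyond the edges not drawn) for slful SFIM minus slful VM, TM and FIM, left to right. The red curve of the 200 members lies to the right of the grey curve of the 18786 tested genes in all 3 panels, with medians of 1.53, 0.83 and 0.28 against -0.05, -0.04 and 0.04.

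Ranked by stage mean, slful had its maximum at VM for 1 member, at TM for 11, at FIM for 41 and at SFIM for 147. Among the 15902 genes with a highest slful mean of at least 2 RPKM, 19.5% had their maximum at SFIM. The calls over VM and TM were spread evenly down the ranking, with 48 members over VM in ranks 1 to 50 and 47 in ranks 151 to 200, and 33 members over TM in each of these bins. Over FIM, 6 of the 11 calls fell in ranks 1 to 50 and 1 in ranks 151 to 200. Applied to the slful means, the same rule returned 74 of the 200 members, or 37% of each list.

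Per library, the members' median log2 distance from the WT SFIM mean shows the same order. It was -1.68, -1.78 and -1.62 in slful VM, -0.96, -0.88 and -1.04 in slful TM, -0.37, -0.46 and -0.54 in slful FIM, and 0.05, -0.31 and -0.21 in slful SFIM. No stage overlaps with the next in slful, and slful SFIM replicate 1 is the highest of its group.

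**Figure D3:**
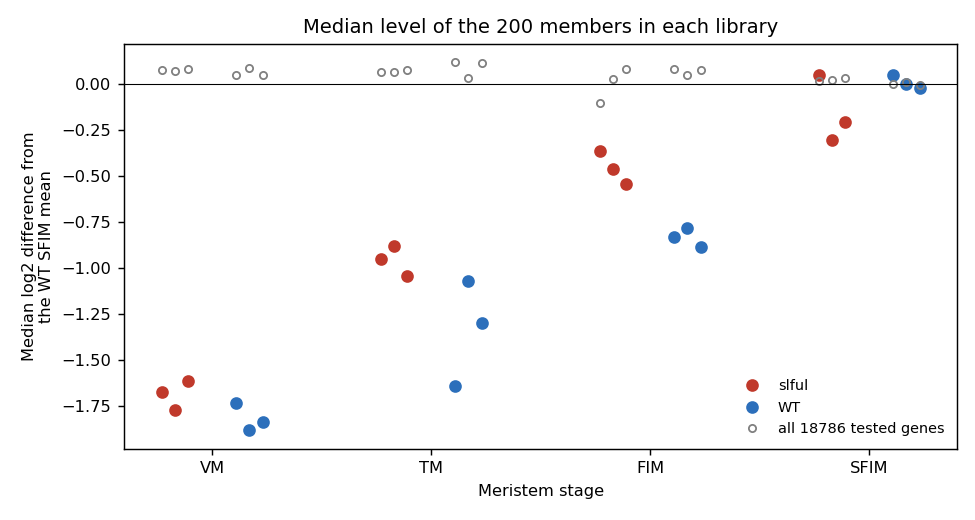
Median over the 200 members of the log2(RPKM + 0.5) difference from the WT SFIM mean (y axis) in each library, by stage (x axis), with slful in red left of WT in blue and all 18786 tested genes as open grey points. The WT points were used by the rule; the slful points run from -1.78 at VM to 0.05 at SFIM, while the grey points stay between -0.10 and 0.12.

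In slful, 10 members were higher at SFIM than at each of the other 3 stages, a pattern that 0.213% of tested genes met. At the top of the ranking in both genotypes stood TCP transcription factor 7 (Solyc02g089830), of a plant family of transcription factors known for controlling growth of leaves, flowers and branches. It had 1.45, 1.03 and 0.780 RPKM in slful VM, 0.201, 0.335 and 0.182 RPKM in slful TM, 0.252, 0.478 and 0.475 RPKM in slful FIM, and 5.19, 5.40 and 7.12 RPKM in slful SFIM. WT had 5.29, 7.48 and 6.15 RPKM at SFIM, and its 9 other libraries lay between 0.0411 and 0.640 RPKM. In both genotypes the SFIM libraries stand clear of all others, while slful SFIM and WT SFIM overlap. The slful log2 differences were 2.02 over VM (SE 0.17, limma adjusted p = 2.03e-09), 3.11 over TM (SE 0.23, limma adjusted p = 1.38e-09) and 2.83 over FIM (SE 0.33, limma adjusted p = 5.79e-06). These calls held under every alternative run, with the largest adjusted p at 0.00867.

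Solyc03g123680, undescribed, followed the same course at a lower level. It had 2.48, 3.88 and 2.59 RPKM in slful SFIM, and 0 to 0.646 RPKM in the 9 other slful libraries. Its lowest difference was 1.91, over VM (SE 0.17, limma adjusted p = 9.45e-09), and its calls also held under every alternative. Its table neighbour Solyc03g123670 is a member too, but had 20.8, 20.7 and 21.3 RPKM in slful SFIM, against 33.2, 21.9 and 19.4 RPKM in slful FIM, where the groups overlap.

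The MADS-box transcription factor Solyc03g006830, of the family to which the FRUITFULL-like genes belong, had 22.5, 24.5 and 24 RPKM in slful SFIM. The 9 other slful libraries ran between 11 and 16.4 RPKM, and none reached the SFIM range. Its differences were 0.88 over VM (SE 0.10), 0.75 over TM (SE 0.14) and 0.75 over FIM (SE 0.20, limma adjusted p = 0.0415). The call over FIM was lost in 6 of 24 alternatives, with an adjusted p of 0.804 without slful FIM replicate 2. In WT the gene had 18.3, 19.2 and 19.1 RPKM at SFIM and 5.87 to 6.38 RPKM at VM.

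The remaining members of the 10 have no description. Solyc08g082160 had at most 0.0525 RPKM in slful VM, 1.12, 1.74 and 1.05 RPKM in slful FIM, and 5.22, 2.75 and 4.98 RPKM in slful SFIM. Solyc12g056970, a short gene of 222 bases, had 0 reads in all 3 libraries of slful TM and of slful FIM. It had 34 reads over the 3 slful SFIM libraries. Its slful SFIM mean was at least 2.56-fold above slful TM and at least 3.44-fold above slful FIM (limit of 3 reads per library, counting error only). Solyc03g112430, Solyc12g009480 and Solyc02g077960 differed by less, with lowest differences of 0.62, 0.34 and 0.48. Solyc02g077960 lost its call in 1 alternative, without slful TM replicate 3, and Solyc08g082160, Solyc12g056970, Solyc03g112430 and Solyc12g009480 in 5 to 10, among them the fit without slful FIM replicate 2.

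**Figure D4:**
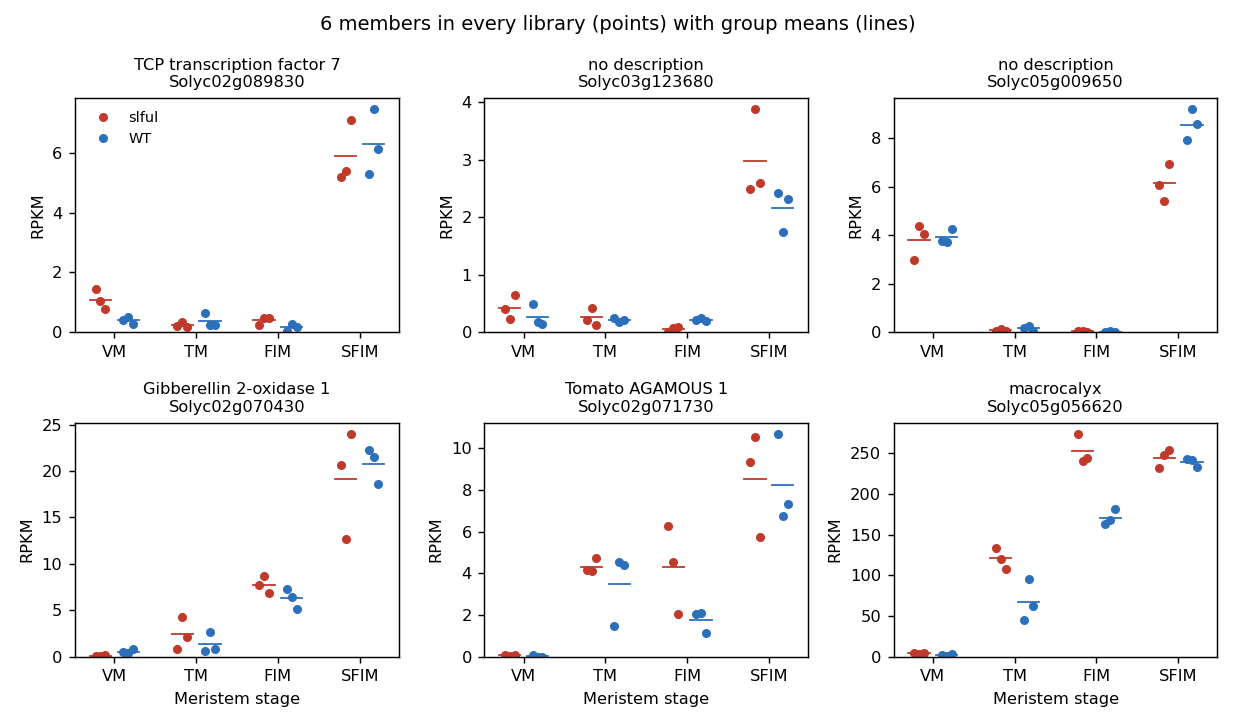
RPKM (y axis, from 0) of 6 members by stage (x axis) in slful (red, left) and WT (blue, right); points are libraries and lines group means. TCP transcription factor 7 and Solyc03g123680 stand out at SFIM alone, Solyc05g009650 at VM and SFIM, Gibberellin 2-oxidase 1 climbs through the stages, and macrocalyx in slful is as high at FIM (mean 253 RPKM) as at SFIM (mean 244 RPKM).

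A second shape, high at VM and SFIM and low at TM and FIM, was shared by 3 undescribed members whose WT VM mean was at least 2 times the larger of their TM and FIM means. Solyc05g009650 had 2.96, 4.37 and 4.04 RPKM in slful VM, at most 0.140 RPKM in any slful TM or FIM library, and 6.09, 5.40 and 6.95 RPKM in slful SFIM. The differences were 0.64 over VM (SE 0.12, limma adjusted p = 0.000167), 3.53 over TM (SE 0.16) and 3.63 over FIM (SE 0.24), and all held under every alternative. The table neighbours Solyc03g031430 and Solyc03g031440 had the same shape. Solyc03g031430 had 4.11, 4.53 and 5.22 RPKM in slful VM, 0.532 to 1.46 RPKM in the slful TM and FIM libraries, and 8.46, 5.80 and 7.29 RPKM in slful SFIM. Solyc03g031440 had 3.61, 3.06 and 3.57 RPKM in slful SFIM against 2.76, 2.89 and 4.03 RPKM in slful VM, which overlap, so it was called over TM and FIM and not over VM (limma adjusted p = 0.64). The stages at which these genes are low are those deposited in the longer number format, and stage and format cannot be told apart.

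Genes of flower identity were among the members. Tomato AGAMOUS 1 (Solyc02g071730), the class of MADS-box factor that specifies stamens and carpels, had 0.0286 to 0.0867 RPKM in slful VM, 4.15, 4.11 and 4.72 RPKM in slful TM, 6.27, 4.54 and 2.04 RPKM in slful FIM, and 9.36, 10.5 and 5.75 RPKM in slful SFIM. SFIM and FIM overlap in slful. In WT, where the rule chose SFIM above FIM, they do not, with 10.7, 6.76 and 7.31 RPKM at SFIM and 2.06, 2.11 and 1.13 RPKM at FIM. The gene is described because the authors listed it as higher in slful at FIM, so nothing is read from this contrast between genotypes. The slful difference was 3.96 over VM (SE 0.22, limma adjusted p = 4.16e-12) and 0.99 over FIM (SE 0.44, limma adjusted p = 0.347; 0.0123 without slful FIM replicate 1). The difference over TM was 0.87 (SE 0.30, limma adjusted p = 0.0325) and lost its call in several alternatives, with adjusted p-values up to 0.141, without slful TM replicate 2.

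Macrocalyx, an APETALA1-like MADS-box gene known for sepal size and for keeping the inflorescence from returning to leaf production, was the last gene inside the limit and among the highest in level. It had 3.95 to 5.07 RPKM in slful VM, 134, 120 and 108 RPKM in slful TM, 274, 240 and 244 RPKM in slful FIM, and 232, 247 and 254 RPKM in slful SFIM. SFIM and FIM overlap in slful. WT had 233 to 243 RPKM at SFIM and 162 to 181 RPKM at FIM, a gap that the rule chose, so nothing is read from the contrast between genotypes. The slful differences were 5.57 over VM (SE 0.17, limma adjusted p = 3.61e-16) and -0.05 over FIM (SE 0.34, limma adjusted p = 0.974). Of the 7 loci listed as SEPALLATA and APETALA1-like, 7 were higher in slful SFIM than in slful VM, 6 than in slful TM and 0 than in slful FIM. Among all tested genes the shares were 19.7%, 13.6% and 1.17%. At 1.17%, 0 of 7 is near the share of all tested genes, so nothing is read from it. Of these 7 loci, 1 is a member. Only 2 of the 7 loci listed as floral organ identity genes of the B and C classes passed the filter on low values. Both were higher in slful SFIM than in slful VM, 1 than in slful TM and 0 than in slful FIM.

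Other regulators were higher in slful SFIM than in slful VM and were not called over slful FIM. Each one given here is described because the authors listed it as higher in slful at FIM. That listing favours a small slful difference over FIM, so nothing is read from the missing calls. The LITTLE ZIPPER 2-like gene Solyc08g007570, whose Arabidopsis relatives encode small proteins that inhibit class III homeodomain leucine zipper factors, had 14.8, 12.6 and 13.4 RPKM in slful SFIM against 9.12, 8.37 and 6.57 RPKM in slful FIM. These libraries do not overlap, yet the difference of 0.74 (SE 0.36) had a limma adjusted p of 0.409 (0.0414 without slful FIM replicate 1). FCS-Like Zinc finger 3 (Solyc01g088660) had 129, 96.4 and 94.3 RPKM in slful SFIM against 119, 77.5 and 72.9 RPKM in slful FIM, which overlap, and differed from slful VM by 1.64 (SE 0.10, limma adjusted p = 3.43e-11). The B3 domain gene Solyc01g108940, of a family of plant DNA-binding proteins, stayed low, with 2.69, 1.90 and 2.76 RPKM in slful SFIM against 0.890, 0.833 and 0.782 RPKM in slful VM.

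Hormone metabolism was represented by 3 described enzymes that break down active hormones. Gibberellin 2-oxidase 1 (Solyc02g070430), which inactivates gibberellins, had 0.103, 0.129 and 0.183 RPKM in slful VM, 0.846, 4.26 and 2.11 RPKM in slful TM, 7.68, 8.74 and 6.86 RPKM in slful FIM, and 20.6, 12.6 and 24 RPKM in slful SFIM. All 3 slful SFIM libraries lie above every other slful library. The difference was 4.89 over VM (SE 0.24, limma adjusted p = 5.44e-13), 2.89 over TM (SE 0.33, limma adjusted p = 1.15e-06) and 1.20 over FIM (SE 0.48, limma adjusted p = 0.263). The gene is described because the authors listed it as lower in slful at VM, which favours a large slful difference over VM. With all groups sharing a single variance, the comparison with FIM reached an adjusted p of 0.0352, as it did without slful FIM replicate 1 (0.0292).

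The cytokinin-degrading oxidases diverged. Cytokinin oxidase4 (Solyc04g080820) had 0.494 to 0.668 RPKM in slful VM, 6.50, 7.98 and 8.79 RPKM in slful FIM, and 7.59, 6.41 and 8.44 RPKM in slful SFIM. Its SFIM and FIM libraries overlap, and SFIM exceeded VM by 2.90 (SE 0.19, limma adjusted p = 4.13e-11). Cytokinin oxidase6 (Solyc12g008900) had 3.37, 4.38 and 4.32 RPKM in slful VM, 9.40, 4.48 and 11.3 RPKM in slful TM, 1.37, 1.56 and 1.20 RPKM in slful FIM, and 3.08, 1.05 and 0.813 RPKM in slful SFIM. The SFIM libraries lie below every VM and TM library and overlap with FIM. It fell by 1.22 relative to VM (SE 0.31, limma adjusted p = 0.00246) and by 2.11 relative to TM (SE 0.42, limma adjusted p = 0.000636). WT had 4.72, 2.21 and 2.12 RPKM at SFIM and 0.279, 1.57 and 0.869 RPKM at TM, an order that the rule chose. The authors listed the gene as higher in slful at VM, TM and FIM, so nothing is read from the opposite orders. Only genes on the authors' lists of slful versus WT differences are described, 4 of them as cytokinin oxidase or dehydrogenase. Of these 4, 2 were higher and 2 lower in slful SFIM than in slful VM (19.7% and 28.2% of tested genes). Against slful TM, 1 was higher and 3 were lower (13.6% and 17.7%). Nothing is read from them about the family.

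Tomato Response regulator 16,17 (Solyc06g048930), of the family of receiver proteins that acts in the cytokinin phosphorelay, had 4.58 to 5.25 RPKM in slful VM, 35.9, 38.5 and 34.5 RPKM in slful TM, 35.3, 28.4 and 17.3 RPKM in slful FIM, and 26.5, 21.0 and 21.0 RPKM in slful SFIM. In slful it was highest at TM, and every TM library lay above every SFIM library, although the difference of -0.67 (SE 0.26) had a limma adjusted p of 0.0544 (0.0111 by voom on the recovered reads). WT had 29.6, 20.9 and 27.4 RPKM at SFIM against 6.35, 23.6 and 11.6 RPKM at TM, where the rule chose SFIM above TM. The authors listed the gene as higher in slful at TM, so nothing is read from the contrast between genotypes.

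A mean close to 0 at VM was common: 22 members averaged under 0.1 RPKM over the 6 VM libraries, and 5 had 0 reads in all 6. Against the limit of 3 reads per library, the slful SFIM mean was at least 545-fold above slful VM for Early nodulin-93 (Solyc12g006680). It was at least 163-fold above for a Hypoxia-responsive family protein (Solyc06g050870), 171-fold for Solyc05g054470 and 41.3-fold for Solyc02g069430. These bounds are for the mean and cover counting error only. For Early nodulin-93 (261, 33.7 and 24.5 RPKM in slful SFIM) and the Hypoxia-responsive gene (83.2, 8.45 and 11.8 RPKM), the mean rests largely on replicate 1. In replicates 2 and 3 the bounds would be lower. The fifth, Solyc10g050990 (Unknown protein), had 36, 1 and 1 reads in slful SFIM, so that its level there rests on replicate 1. Without that library its limma adjusted p over slful VM was 0.253, and slful SFIM lay below slful FIM by a log2 difference of -3.40 (limma adjusted p = 0.000211). Solyc05g054470 had 5.55, 11.6 and 8.17 RPKM in slful TM, 8.10, 7.66 and 5.79 RPKM in slful FIM, and 16.4, 23.8 and 15.4 RPKM in slful SFIM, so that no slful FIM or TM library reached the SFIM range.

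In 26 members slful SFIM replicate 1 stood over 2-fold above both other slful SFIM libraries, a pattern found in 60 of all tested genes (0.319%). In 24 of these 26, WT SFIM replicate 1 was also the highest WT SFIM library, and in 2 it was over 2-fold above both others. The rule chose members for a high WT SFIM mean, which favours genes raised in a single WT SFIM library. The share of all tested genes with this match was not taken, so nothing is read from the 24. Early nodulin-93 had 261, 33.7 and 24.5 RPKM in slful SFIM and 165, 54.8 and 102 RPKM in WT SFIM. Alcohol dehydrogenase (Solyc06g059740), the enzyme that regenerates NAD+ in ethanol fermentation, had 406, 54.0 and 48.2 RPKM in slful SFIM and 309, 96.2 and 155 RPKM in WT SFIM. In both genes the first SFIM library is the highest in each genotype, and slful SFIM replicates 2 and 3 lie below all 3 WT SFIM libraries.

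The Hypoxia-responsive family protein had 83.2, 8.45 and 11.8 RPKM in slful SFIM and 66.1, 15.7 and 42.8 RPKM in WT SFIM. Glutamate decarboxylase (Solyc04g025530), which makes gamma-aminobutyrate, had 7.5, 0.952 and 0.352 RPKM in slful SFIM and 9.49, 1.10 and 1.82 RPKM in WT SFIM. Its limma adjusted p over slful VM was 0.00859, and 0.105 without slful SFIM replicate 1. Also in this group were a Poly [ADP-ribose] polymerase (Solyc03g114360), a Wound-responsive family protein (Solyc07g063640), a LOB domain-containing protein (Solyc02g085910) and cytokinin oxidase6, and 14 of the 26 have no description. Of the 26, 24 were higher in slful SFIM than in slful VM, 3 than in slful TM and 0 than in slful FIM by the limma adjusted p, beside 19.7%, 13.6% and 1.17% of all tested genes, with 0 over FIM at an unadjusted p under 0.05 and 0 by voom. Without slful SFIM replicate 1, the library that chose them, 22 were higher than slful VM (18.5% of tested genes). Against slful TM, 1 was higher and 7 were lower in that fit (12.9% and 16.2% of tested genes). Leaving out the library that chose them lowers their SFIM level by construction. Without WT SFIM replicate 1 the rule would have kept 19 of them, and Glutamate decarboxylase and Solyc10g050990 would have fallen below the minimum level. What sets the first SFIM libraries apart was not tested.

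**Figure D5:**
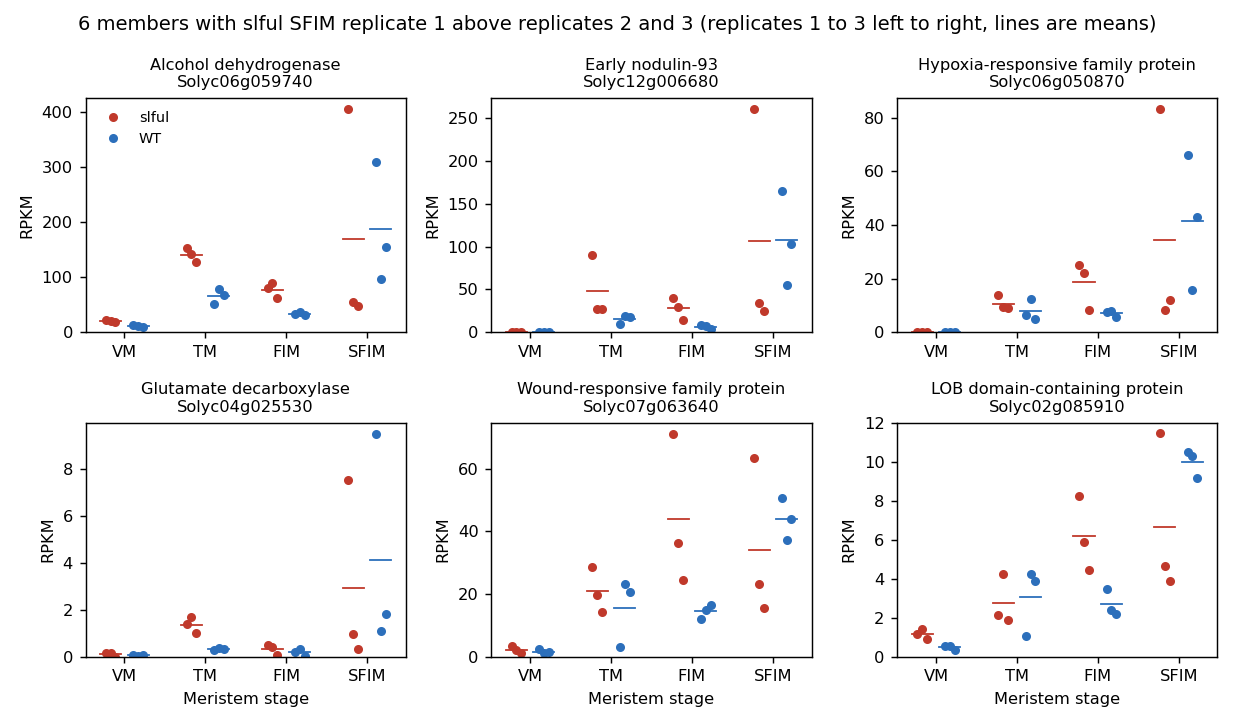
RPKM (y axis, from 0) by stage (x axis) of 6 members for which slful SFIM replicate 1 was over 2-fold above replicates 2 and 3; slful in red left of WT in blue, replicates 1 to 3 left to right, lines for means. Alcohol dehydrogenase reaches 406 RPKM in slful SFIM replicate 1 and 54.0 and 48.2 RPKM in the other slful SFIM libraries, below all 3 slful TM libraries.

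Members with neighbouring IDs formed 12 pairs of 23 genes. The largest run was 3 genes, of which Solyc09g084460 and Solyc09g084480 are described as Protease inhibitor I, a class known for induction by wounding, and Solyc09g084470 between them has no description. Whether reads were divided between similar copies was not tested. Solyc09g084460 had 1.31, 0.764 and 0.999 RPKM in slful SFIM and 0.699, 1.07 and 1.59 RPKM in slful FIM, which overlap, while WT SFIM had 4.05, 4.54 and 5.02 RPKM. Solyc09g084470 was the most abundant of the run, with 31.4 to 52.8 RPKM in slful VM, 271, 185 and 199 RPKM in slful FIM, and 170, 161 and 203 RPKM in slful SFIM. Solyc09g084480 had 15.7, 8.98 and 14.4 RPKM in slful SFIM and 3.72, 10.9 and 7.80 RPKM in slful VM, which overlap, and was not called over VM (limma adjusted p = 0.079).

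A pair at Solyc07g006560, described as Hypersensitive response assisting protein, and Solyc07g006570 was higher in slful SFIM than in slful VM for both genes and called over FIM for neither. Solyc07g006560 had 2.75 to 5.31 RPKM in slful VM, 39.5, 27.5 and 33.0 RPKM in slful FIM, and 27.0, 23.6 and 29.2 RPKM in slful SFIM. Solyc07g006570 had 5.26, 6.66 and 6.91 RPKM in slful SFIM and 8.46, 7.28 and 12.8 RPKM in slful FIM, where no SFIM library reaches the FIM range. Solyc11g012325, described as Unknown protein and ranked 4, stands beside Solyc11g012320 and had 94.9, 62.2 and 96.4 RPKM in slful SFIM against 55.4, 26.5 and 18.9 RPKM in slful FIM, with no overlap. Its slful difference over FIM, 1.44 (SE 0.44), had a limma adjusted p of 0.0899.

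Between slful and WT at the same stage the values below are a description only. The WT libraries chose the members for low values at VM, TM and FIM and for high values at SFIM, so nothing is read from the direction or the counts. The median slful minus WT log2 difference was 0.04 at VM, 0.36 at TM, 0.38 at FIM and -0.18 at SFIM. By the limma adjusted p, 8 members were higher and 3 lower in slful VM (1.31% and 0.351% of tested genes), 7 higher and 0 lower in slful TM (0.245% and 0.122%), 0 higher and 0 lower in slful FIM (0.0798% and 0.0479%), and 1 higher and 6 lower in slful SFIM (1.65% and 0.431%). At an unadjusted p under 0.05, 5 members were lower in slful TM, 36 higher and 1 lower in slful FIM; voom called 0, 1 and 0. All 3 slful FIM libraries lay above all 3 WT FIM libraries for 89 members (7.57% of tested genes), and all 3 slful SFIM libraries lay below WT SFIM for 36 (6.37%). For 12 members both held, against 0.41% of tested genes. Without slful SFIM replicate 1, 35 members were lower and 0 higher in slful SFIM (0.649% and 1.41% of tested genes). At TM, where same-numbered slful and WT libraries deviated together, a replicate block gave 13 members higher and 1 lower in slful (0.559% and 0.415% of tested genes).

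The widest gap at SFIM was that of Solyc09g084460, at 1.02 ± 0.27 RPKM in slful and 4.54 ± 0.48 RPKM in WT (SD, n = 3 each), a log2 difference of -1.74 (SE 0.15). A glycine-rich cell wall structural protein-like gene (Solyc09g092700) had 4.28, 6.82 and 6.22 RPKM in slful SFIM against 12.4, 11.7 and 13.6 RPKM in WT SFIM, and the groups do not overlap. In the other direction, the Sl proline-rich protein gene (Solyc12g009650) had 6.76, 5.95 and 9.54 RPKM in slful SFIM against 3.40, 4.67 and 4.15 RPKM in WT SFIM. In the authors' deposited table, which names 121 to 216 genes a stage, 8 members were higher and 2 lower in slful at VM (0.302% and 0.0792% of the 34075 genes). At TM, 11 were higher and 0 lower in the authors' deposited table (0.302% and 0.0616%), at FIM 30 and 0 (0.534% and 0.0998%), and at SFIM 0 and 2 (0.282% and 0.0734%). Those 2 are Solyc09g084460 and Solyc09g092700, with log2 fold changes of -2.17 and -1.15 in the authors' deposited table.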

How the data were processed

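Per the labels, RNA was column-extracted and treated with DNase, and libraries came from a TruSeq RNA kit. Strandedness, aligner and genome build: not given in the sources used here. RPKM values per gene were deposited, as were the authors' own slful versus WT comparisons by stage (log2 fold change, p-value, false discovery rate), which serve here only where named. Whole reads and gene lengths were recovered from the deposited RPKM values for all 25568 genes above 0, within 0.001 reads. The totals, 12.93 to 90.37 M reads, set the precision.

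The genes, lists and tests were chosen with earlier results of these data known. limma 3.58.1 in R 4.3.3 was run on log2(RPKM + 0.5), a scale that shrinks the change of low genes. The 18786 genes tested reached 0.5 RPKM in 3 or more libraries. The model was 1 fit of 24 libraries, a mean and a variance weight per group, a trend, 16 residual and 4.97 prior degrees of freedom, Benjamini-Hochberg adjustment, threshold 0.05, no limit on the fold. All 200 members passed the filter. The planned tests stood as written. Because the rule used WT, slful against WT is described and not tested as support. p-values measure the spread between pools of plants. Of the comparisons made, same-numbered libraries deviated together (every correlation of deviations over 0.1) only for slful and WT TM, at 0.23, 0.18 and 0.15; this comes from the data, not the labels, and the blocked count stands beside that comparison. Genes are named by rank, description, position beside the limit, extreme slful or slful minus WT differences, ID lists and neighbouring IDs; others are marked. The script steps were tested on simulated data. Python 3.11.15 was used for tables. No gene ID matched the RefSeq table held, so no sequence or coordinate is given.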

Additional observations from a re-analysis of the deposited data

Results flagged for a closer look

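For 12 members, 9 of them among the genes named by rule, all 3 slful libraries lay above WT at FIM and all 3 lay below WT at SFIM, a pattern met by 0.41% of tested genes. The WT libraries chose the members for low FIM and high SFIM values, which favours this pattern, so nothing is read from it, and the difference between the stages was not tested. The slful minus WT log2 difference at FIM exceeded that at SFIM by 2.37 for Solyc09g084480 (Protease inhibitor I) and 1.22 for its undescribed neighbour Solyc09g084470. The excess was 1.58 for Solyc07g006560 (Hypersensitive response assisting protein) and 1.20 for its undescribed neighbour Solyc07g006570. It was 1.67 for a RING/U-box superfamily protein gene (Solyc06g007230), 1.44 for an AMP-dependent synthetase/ligase (Solyc02g081360), 1.14 for Solyc08g029240 (Unknown protein), 0.957 for a Tetraspanin family protein gene (Solyc08g076850) and 0.757 for Solyc03g123670. Solyc06g007230 had 12.2, 8.43 and 9.61 RPKM in slful FIM against 4.70, 3.26 and 4.22 RPKM in WT FIM, and 9.66, 7.51 and 9.58 RPKM in slful SFIM against 11.5, 13 and 12.6 RPKM in WT SFIM. Within slful, SFIM minus FIM lay below 0 for these genes, with the lowest value of -0.53 on the log2 scale for Solyc07g006570 (SE 0.44), and limma called none of them.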

How the results depend on the processing

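The counts over slful VM and slful TM kept within 1.5 times under every alternative run. Leaving out any 1 slful library gave 182 to 190 over VM (16.7% to 19.9% of tested genes over those fits). Over TM it gave 89 to 134 (7.41% to 16.2%). Over slful FIM (11) and over all 3 stages (10), leaving out 1 library gave 6 to 37 and 5 to 34. The shares of all tested genes, 1.17% and 0.213% in the main fit, moved with the counts. Slful FIM replicate 1 left out gave 37 and 34 (3.87% and 0.841%), and its replicate 2 gave 6 and 5 (0.538% and 0.0639%). Its replicate 3 gave 7 and 6 (0.825% and 0.112%), and slful SFIM replicate 3 left out gave 7 and 6 (1.09% and 0.16%). No variance weights gave 34 and 29 (3.82% and 0.602%), and a mean of at least 1 RPKM gave 6 and 5 (0.737% and 0.109%). Leaving out slful SFIM replicate 1 with slful FIM replicate 1, chosen after seeing the data, gave 29 and 23 (3.37% and 0.655%). The rule on SFIM against VM alone shared 77 members, and leaving out 1 WT library kept 173 to 195; the slful version of the rule shared 57 to 85 leaving out 1 library. Slful versus WT counts moved most. Below, brackets hold the shares of all tested genes higher and lower in slful in the same fit. At VM, 11 in the main fit (1.31% and 0.351%): no weights 2 (0.373% and 0.0745%), no filter 7 (1.03% and 0.34%), voom 3 (1.14% and 0.266%). The groups compared alone gave 1 (0.24% and 0.0213%). With 1 library left out it was 3 (0.426% and 0.0958%) to 12 (1.29% and 0.373%). At TM, 7 in the main fit (0.245% and 0.122%): no weights 18 (0.814% and 0.99%), groups alone 0 (0.0213% and 0%). With 1 library left out it was 0 to 15 (0.399% and 0.192% at 15). At FIM, 0 in the main fit (0.0798% and 0.0479%): no weights 18 (0.9% and 0.612%), length trend removed 5 (0.341% and 0.112%), voom 1 (0.122% and 0.0319%), groups alone 1 (0.0479% and 0%). With 1 library left out it was 0 to 8 (0.41% and 0.144% at 8), and with both libraries left out 10 (0.421% and 0.117%). At SFIM, 7 in the main fit (1.65% and 0.431%): no weights 1 (0.277% and 0.0905%), log2(RPKM + 0.1) 2 (1.69% and 0.41%), log2(RPKM + 1) 11 (1.66% and 0.468%). Voom gave 14 (1.39% and 0.474%) and groups alone 1 (0.0639% and 0.016%). With 1 library left out it was 3 (0.57% and 0.234%) to 35 (1.41% and 0.649%), and with both left out 33 (1.18% and 0.58%). Replicate numbers do not pair slful SFIM with the other slful stages (correlations of deviations -0.05 to 0.11). With replicate number as a block the counts were 187 over VM (19.4% of tested genes), 129 over TM (13.6%), 12 over FIM (1.22%) and 11 over all 3 (0.218%). For slful versus WT at TM, the comparison whose numbers do pair, the count was 14 (0.559% higher and 0.415% lower). Of named genes called, 74 of 79 over VM, 43 of 64 over TM and 6 of 12 over FIM kept the call under every alternative. The cause of these shifts was not tested. Among the members the slful SFIM spread (median SD 0.236 on the log2 scale) was near that of slful FIM (0.267), and both limit the comparison with FIM. A p above the threshold there does not show equal levels.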

Other observations

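By the number in the gene ID, chromosome 2 held 28 members (1.63% of its genes that met the minimum) and chromosome 10 held 5 (0.485%), without a test. Solyc12g006460, the only member highest at VM in slful, had 31.1, 36.0 and 39.5 RPKM in slful VM and 31.0, 33.4 and 39.4 RPKM in slful SFIM, ranges that nearly coincide. Solyc12g009300, an undescribed member, had 25.1, 7.51 and 6.29 RPKM in slful SFIM and 19.4, 5.70 and 5.57 RPKM in WT SFIM; without WT SFIM replicate 1 its rank would be 1637. Members were more variable between replicates than the tested genes as a whole, with a median SD on the log2 scale of 0.236 in slful SFIM and 0.169 in WT SFIM, against 0.0921 and 0.0917 over all tested genes, and 12 members exceeded an SD of 1 in slful SFIM and 2 in WT SFIM.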
